A study of Brassica rapa with 8 samples.

Results

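*IAA2* (BraA03g040660.3C) and *IAA29* (BraA03g057220.3C) are the Aux/IAA repressor genes that the study of *B. rapa* seedlings named among its auxin-related DEGs (differentially expressed genes), and they are 2 of the 46250 genes listed in the count files. The study annotated them by their similarity to *A. thaliana* genes and they were chosen by their measured difference between treated and control seedlings in these same libraries, so that their differences from the control are given here as a description and without a test. RNA of whole Chinese cabbage seedlings (ssp. *pekinensis*, cv. Cantonner Witkrop) was sequenced in 8 libraries. There were 2 biological replicates each of untreated seedlings on hormone-free agar and of seedlings on agar that held IAA-Ala, IPA-Ala or IBA-Ala at 0.01 mM. Each compound is an amide of alanine with an auxin, namely indole-3-acetic (IAA), indole-3-propionic (IPA) or indole-3-butyric acid (IBA), so the acyl side chain lengthens from IAA-Ala through IPA-Ala to IBA-Ala. All groups share the genotype, an age of 1 day at transfer, continuous light at 22 °C and 1% agar. The treatment lasted 24 h according to the protocol and the paper, whereas the sample titles give 3 h. The libraries held between 16616214 and 19521990 counts on genes. Replicates differed by more than sampling noise in every group, with a chi-square per gene between 21.1 and 42.8 where counting error alone gives about 1. This is a mean over genes with libraries scaled by their total counts only. It grows with the count, so scaling differences and highly expressed genes add to it. Since the identifiers of the files were not matched to the reference table of gene names (0 matched), positions, gene lengths, sequences and markers of seedling tissues were not used here. The seedlings were sequenced as bulk, so that a change in the RNA per cell and a change in the share of expressing cells cannot be told apart.

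Aux/IAA proteins are short-lived nuclear repressors that bind auxin response factors (ARFs) and keep auxin-responsive genes silent. Auxin joins them to F-box receptors of the TIR1/AFB family, after which they are marked with ubiquitin and degraded, and the ARFs are released. Many *Aux/IAA* genes are themselves targets of ARFs, so their transcripts are used as markers of an auxin response and their products feed back on it. In *A. thaliana*, *IAA2* is an auxin-inducible member of the family whose promoter serves as a reporter of auxin response in roots, and *IAA29* is a member that is also induced in shade and at warm temperature by phytochrome-interacting factors.

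The expression of both repressors was lowest in the control and higher in each of the 6 treated libraries. For *IAA2*, 102 and 56 reads were counted in control replicates 1 and 2, which corresponds to 5.56 and 3.50 CPM (read counts scaled to a common library size with edgeR's TMM factors). After IAA-Ala the level of *IAA2* was 32.7 and 24.0 CPM, after IPA-Ala 20.1 and 26.6 CPM, and after IBA-Ala 38.2 and 35.8 CPM in replicates 1 and 2. The treated libraries thus did not overlap with the control, the 2 IBA-Ala libraries were the highest, and the IAA-Ala and IPA-Ala libraries overlapped with each other. For *IAA29*, the control libraries held only 12 and 10 reads, or 0.654 and 0.626 CPM. The level of *IAA29* was 24.2 and 12.8 CPM after IAA-Ala, 4.19 and 7.80 CPM after IPA-Ala, and 10.2 and 21.2 CPM after IBA-Ala in replicates 1 and 2. Here too all treated libraries lay above the control, with the 2 IPA-Ala libraries below the other 4 treated libraries and the IAA-Ala and IBA-Ala libraries overlapping. This separation of all treatments from the control was found for 7.7% of 27948 genes, among them both repressors. They were chosen by their difference from the control, which favours such a separation, so it is not independent evidence. The counting error of the low *IAA29* counts was wide, with exact 95% Poisson intervals from 0.338 to 1.14 CPM and from 0.300 to 1.15 CPM in control replicates 1 and 2. Counting intervals do not include the spread between seedlings.

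**Figure D1:**
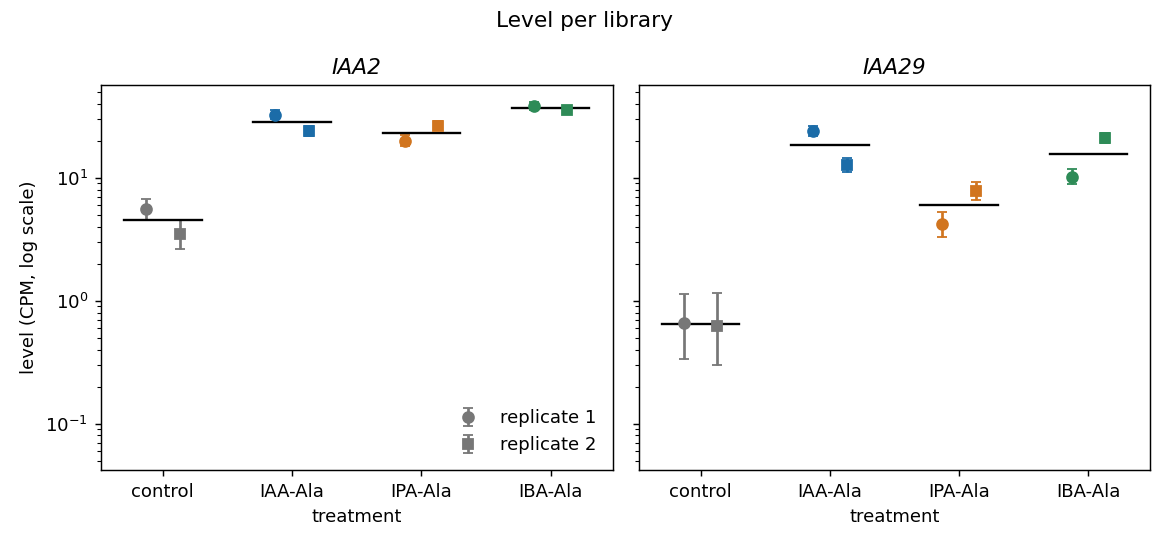
Level of *IAA2* (left) and *IAA29* (right) in each library on a log axis in CPM, where circles are replicate 1, squares replicate 2, bars exact 95% Poisson intervals and black lines the mean of 2 replicates. Both genes were lowest in the control, with means of 4.53 and 0.640 CPM, and *IAA29* replicates lay further apart than *IAA2* replicates after each treatment.

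The mean level of *IAA2* was 4.53 ± 1.45 CPM (SD, n = 2) in the control, 28.3 ± 6.15 CPM with IAA-Ala, 23.4 ± 4.65 CPM with IPA-Ala and 37.0 ± 1.74 CPM with IBA-Ala. Against the control, this gave log2 fold changes of 2.62 (standard error 0.34) with IAA-Ala, 2.35 (standard error 0.34) with IPA-Ala and 3.02 (standard error 0.31) with IBA-Ala. The 3 comparisons share the 2 control libraries, and control replicate 1 held the higher *IAA2* level. Without that library the log2 fold change of *IAA2* after IBA-Ala was 3.40. Among all genes ordered from the highest to the lowest log2 fold change, increases first, *IAA2* was at rank 105 of 26769 genes after IAA-Ala, rank 200 of 26827 with IPA-Ala and rank 192 of 27011 with IBA-Ala.

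*IAA29* started from a lower count and had the larger log2 fold change with each conjugate. The control held a mean of 0.640 ± 0.0199 CPM (SD, n = 2), compared with 18.5 ± 8.03 CPM with IAA-Ala, 5.99 ± 2.55 CPM with IPA-Ala and 15.7 ± 7.78 CPM with IBA-Ala. The log2 fold changes of *IAA29* were 4.82 (standard error 0.50), 3.21 (standard error 0.52) and 4.60 (standard error 0.52) in the same order of treatments. In the same order, from the highest increase down, it was at rank 9 of 26769 genes after IAA-Ala, rank 67 of 26827 with IPA-Ala and rank 47 of 27011 with IBA-Ala. The order of the treatments thus differed between the repressors in their means, from IBA-Ala through IAA-Ala to IPA-Ala for *IAA2* and from IAA-Ala through IBA-Ala to IPA-Ala for *IAA29*. The IAA-Ala and IBA-Ala libraries of *IAA29* overlapped, so the order of these treatments for *IAA29* rests on the means alone. IPA-Ala, the conjugate of intermediate chain length, gave the lowest mean of the 3 treatments for both genes.

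The replicates of *IAA29* lay further apart than those of *IAA2* in each treated group. The higher replicate held 1.89 times the level of the lower one with IAA-Ala, 1.86 times with IPA-Ala and 2.08 times with IBA-Ala. For *IAA2* the same ratio was 1.36, 1.33 and 1.07. In the control the order was the opposite, with a ratio of 1.59 for *IAA2* and 1.05 for *IAA29*, although the *IAA29* counts there were too few to show a difference of that size. Counting error does not cover the gaps of *IAA29* between treated replicates. After IBA-Ala, the 95% Poisson interval ran from 8.83 to 11.7 CPM in replicate 1 and from 19.2 to 23.4 CPM in replicate 2. Over all groups, the coefficient of variation that edgeR estimated between replicates beyond counting error (the square root of the tagwise dispersion) was 19.7% for *IAA2* and 30.8% for *IAA29*. The median over 27948 genes was 22.8%, and *IAA2* lay at percentile 33.2 and *IAA29* at percentile 74.1 of all genes.

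The treatments were compared with each other at the matched dose of 0.01 mM and at the same time to ask whether the conjugates differ in their effect on the repressors. These contrasts did not choose the genes, although the treated libraries are the same ones that the choice used. *IAA29* was 3.08-fold higher after IAA-Ala than after IPA-Ala, with no overlap between the libraries, and this was the largest difference of the 6 examined (2 genes in 3 pairs of conjugates). The log2 fold change was 1.62 (standard error 0.38, 95% interval from 0.76 to 2.50) with an unadjusted p of 0.00241 and a Benjamini-Hochberg adjusted p of 0.0618 over 26762 genes by the quasi-likelihood test of edgeR, above the threshold of 0.01 used for DEGs. DESeq2, the tool of the paper's methods, gave an adjusted p of 0.00280 for the same contrast, with a log2 fold change of 1.63, so the call of *IAA29* between IAA-Ala and IPA-Ala depended on the tool. Over all alternatives, the adjusted p of this contrast lay between 0.00280 and 0.387. Its log2 fold change was 1.11 without IAA-Ala replicate 1 and was 2.15 without IPA-Ala replicate 2, the lowest and highest values with a library left out.

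*IAA29* was 2.60-fold higher after IBA-Ala than after IPA-Ala, again without overlap. The log2 fold change was 1.38 (standard error 0.42, 95% interval from 0.42 to 2.35) with an unadjusted p of 0.0111 and an adjusted p of 0.509 over 26940 genes by edgeR. Without IBA-Ala replicate 2, which held the higher level, it was 0.75. Between IAA-Ala and IBA-Ala, the log2 fold change of *IAA29* was 0.24 (standard error 0.40, edgeR adjusted p = 0.749), and its 95% interval from −0.70 to 1.18 allows a difference of up to 2.26-fold in favour of IAA-Ala as well as a lower level after IAA-Ala. This difference turned its sign when IAA-Ala replicate 1 (−0.29) or IBA-Ala replicate 1 (−0.21) was left out.

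*IAA2* differed less than *IAA29* in both contrasts with IPA-Ala, but not between IAA-Ala and IBA-Ala. It was 1.58-fold higher after IBA-Ala than after IPA-Ala without overlap of the libraries, a log2 fold change of 0.66 (standard error 0.20, 95% interval from 0.19 to 1.13) with an unadjusted p of 0.0119 and an adjusted p of 0.511 by edgeR. From IBA-Ala to IAA-Ala, *IAA2* had a log2 fold change of −0.39 (standard error 0.20, 95% interval from −0.85 to 0.08, edgeR adjusted p = 0.258), and both IAA-Ala libraries were below both IBA-Ala libraries. Between IAA-Ala and IPA-Ala the log2 fold change was 0.28 (standard error 0.23, 95% interval from −0.24 to 0.81, adjusted p = 0.514 in edgeR), with overlapping libraries. An interval of this width does not show that these conjugates act alike on *IAA2*, since it reaches to a 1.75-fold higher level after IAA-Ala.

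**Figure D2:**
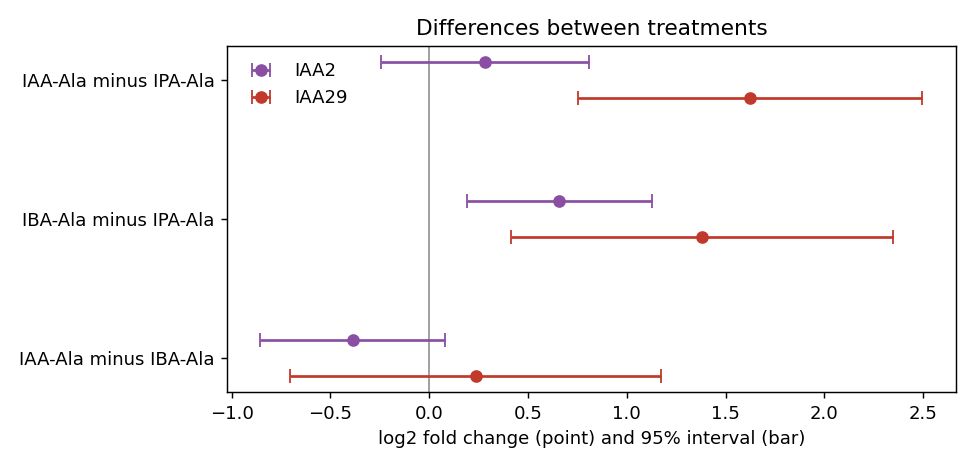
Log2 fold change of *IAA2* and *IAA29* between pairs of conjugates, with points for the estimate and bars for the 95% interval from edgeR's fits of 4 libraries. The intervals of both genes lay above 0 for IBA-Ala minus IPA-Ala (0.66 and 1.38), that of *IAA29* also for IAA-Ala minus IPA-Ala (1.62), and none of the 6 differences had an adjusted p below 0.01 in this fit.

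With the threshold of 0.01 on the adjusted p of edgeR, 0 of the 2 repressors and 0% of all genes were called in each of the 3 comparisons between conjugates. An unadjusted p below 0.05 was found for *IAA29* alone between IAA-Ala and IPA-Ala (22.7% of all genes), for neither repressor between IAA-Ala and IBA-Ala (27.2% of all genes), and for both between IBA-Ala and IPA-Ala (7.97% of all genes). In the same order of comparisons, DESeq2 called 846, 1736 and 91 genes at 0.01, which is 4.02%, 7.29% and 0.39% of the genes with an adjusted p. Libraries without overlap were common among all genes, so that the separation of the repressor levels is not particular to them. In this way, 25.9% of genes were higher and 27.4% lower after IAA-Ala than after IPA-Ala, where *IAA29* was higher and *IAA2* overlapped. After IAA-Ala, 28.8% of genes were higher and 29.2% lower than after IBA-Ala, where *IAA2* was lower and *IAA29* overlapped. After IBA-Ala, 19.6% of genes were higher and 18.5% lower than after IPA-Ala, where both repressors were higher. The 3 comparisons share libraries in pairs, and IPA-Ala enters both contrasts in which *IAA29* had an interval above 0.

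The repressors were also set against each other within each library, since the ratio of their reads does not depend on the depth or the scaling of the library. It is a ratio of reads and not of transcripts, because gene lengths were not used. Per 100 reads of *IAA2*, the control libraries held 11.8 and 17.9 reads of *IAA29* in replicates 1 and 2. After IAA-Ala there were 74.0 and 53.5, in the IPA-Ala libraries 20.9 and 29.3, and in the IBA-Ala libraries 26.7 and 59.3 reads of *IAA29* per 100 reads of *IAA2*. The ratio was therefore highest in IAA-Ala replicate 1, the IPA-Ala libraries lay below both IAA-Ala libraries, and the IBA-Ala replicates lay on either side of the gap between them, replicate 1 within the range of IPA-Ala and replicate 2 within that of IAA-Ala. The exact 95% binomial intervals of the IBA-Ala libraries, from 22.7 to 31.3 and from 52.2 to 67.2, did not overlap. On the log2 scale, the mean ratio was −0.67 ± 0.33 (SD, n = 2) after IAA-Ala, −2.02 ± 0.34 after IPA-Ala, −1.33 ± 0.81 after IBA-Ala and −2.79 ± 0.43 in the control. The 3 treatments differed in this ratio by up to 1.35 on the log2 scale, with p = 0.267 in an exact permutation test over the 6 treated libraries, in which 0.0667 is the smallest p that the design allows. This smallest p of 0.0667 lies above the thresholds used here. The test therefore cannot decide whether the balance of the repressors differed between treatments, and no conclusion is drawn from it. The IAA-Ala and IPA-Ala libraries did not overlap in this ratio, while the IBA-Ala libraries overlapped with both.

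**Figure D3:**
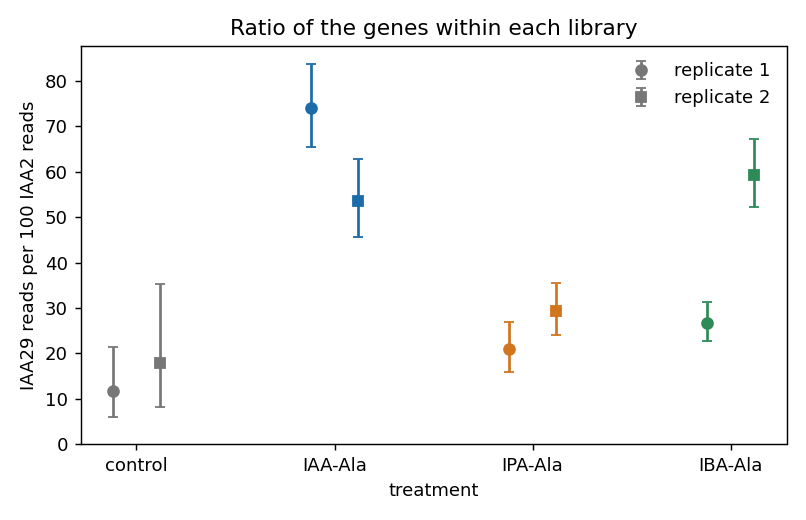
Reads of *IAA29* per 100 reads of *IAA2* in each library, with circles for replicate 1, squares for replicate 2 and bars for exact 95% binomial intervals. The IAA-Ala libraries (74.0 and 53.5) lay above the IPA-Ala libraries (20.9 and 29.3), while the IBA-Ala libraries (26.7 and 59.3) lay apart from each other.

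Across the 6 treated libraries, the log2 CPM of *IAA2* and *IAA29* had a Pearson correlation of 0.70 (exact permutation p = 0.129) and a Spearman correlation of 0.49 (exact permutation p = 0.356), both two-sided, for the 1 pair of genes examined. Without the 2 libraries farthest from the median of *IAA2* (IPA-Ala replicate 1 and IBA-Ala replicate 1), Pearson's r was 0.76 over 4 libraries. The 6 libraries fall into 3 groups of 2, so they share their treatments. The permutations treated the libraries as exchangeable, so these p-values do not take the shared treatments into account.

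Over all 8 libraries, the 2 genes with a pattern most like *IAA2* among 27947 others were BraA01g031100.3C (Pearson's r of log2 CPM 0.991) and BraA07g029200.3C (0.985), and those most like *IAA29* were BraA09g010140.3C (0.981) and BraA10g020140.3C (0.979). The files do not pair these identifiers with names. Pearson's r does not measure the size of a change. The mean level of BraA09g010140.3C was 62.4 CPM in the control and between 74.7 and 82.5 CPM after the treatments. That of BraA10g020140.3C was 0.675 CPM in the control and between 1.51 and 2.04 CPM after the treatments. *IAA29* was at rank 67 of the genes most like *IAA2* (r = 0.95), and *IAA2* was at rank 25 of those most like *IAA29*. Among the other auxin-related genes that the study named, *YDK1* (rank 5, r = 0.965) and *GH3.3* (rank 18, r = 0.954), which encode enzymes that join IAA to amino acids, were nearest to *IAA29*. Nearest to *IAA2* were *YUC3* (rank 118, r = 0.938), an enzyme of IAA synthesis, and *EIR1* (rank 178, r = 0.928), an auxin efflux carrier also known as PIN2. These correlations are descriptions over 8 libraries. They carry the gap between control and treated libraries, by which *IAA2*, *IAA29* and the other auxin genes were chosen, and a correlation above 0.9 was found for 1.25% of all genes with *IAA2* and for 0.569% with *IAA29*. Within the 6 treated libraries alone, *IAA29* had a correlation of 0.88 with *YDK1* and 0.86 with *GH3.3*, whereas that of *IAA2* with *YUC3* was 0.08 and with *EIR1* 0.82. The share of all genes with correlations of such size in the 6 libraries was not examined, so none of them can be called unusual. *UGT74E2*, a glucosyltransferase of IBA in *A. thaliana*, had a correlation of 0.90 with *IAA2* in these 6 libraries and 0.32 with *IAA29*. Some of the named genes went the other way there. The correlation with *IAA29* was −0.81 for *SAUR*-like BraA07g029140.3C and −0.80 for *C-S lyase*, and that of *C-S lyase* with *IAA2* was −0.77.

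The 10 other auxin-related genes with an identifier in the paper are the amido synthetase genes *YDK1* and *GH3.3*, 4 *SAUR*-like genes of the early auxin response, *YUC3*, *EIR1*, *UGT74E2* and *C-S lyase*, whose product acts in glucosinolate synthesis in *A. thaliana*. The study chose this list on these samples, so its direction against the control is not independent evidence. Against the control, 8 of the 9 genes with enough counts after IAA-Ala and 9 of 10 with either of the other conjugates had a higher level without overlap, where 24.3%, 19.3% and 23.9% of all genes did, and *C-S lyase* was lower in each case. The median log2 fold change of the list was 1.18 with IAA-Ala, 1.74 with IPA-Ala and 2.25 with IBA-Ala, beside −0.02, −0.02 and −0.01 over all genes tested. *IAA2* and *IAA29* lay above these medians with every conjugate.

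**Figure D4:**
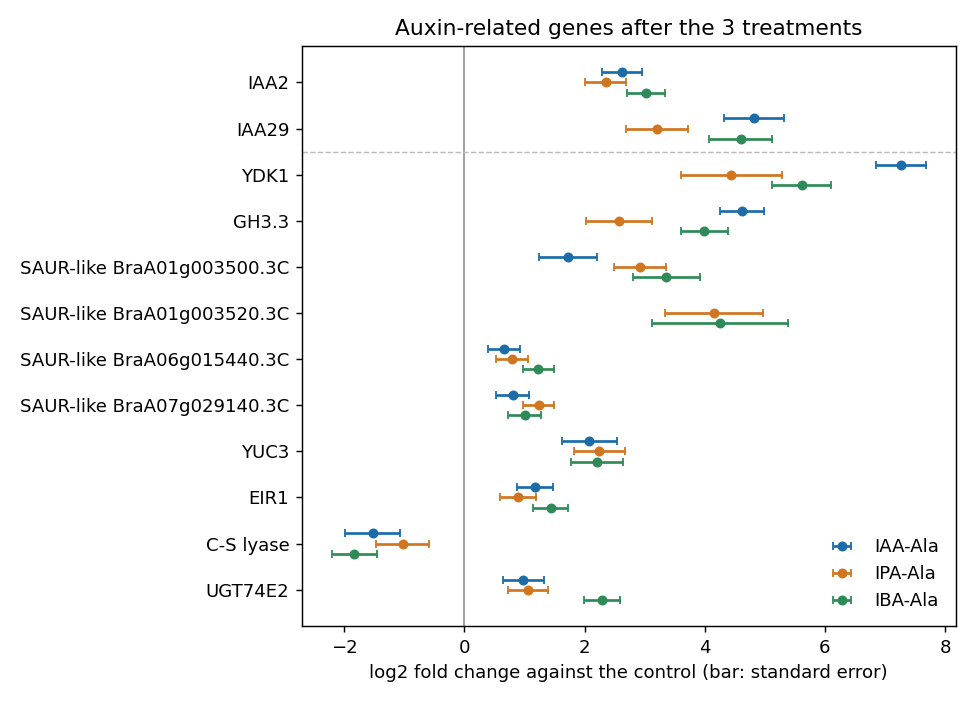
Log2 fold change against the control of *IAA2*, *IAA29* and the 10 other auxin-related genes of the study for each conjugate, with bars for the standard error. *SAUR*-like BraA01g003520.3C has no value for IAA-Ala because its counts were too low there, and *C-S lyase* was the only gene of the 12 below 0, at −1.52, −1.02 and −1.83.

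By mean level, the order of the conjugates seen for *IAA29*, with IAA-Ala highest and IPA-Ala lowest, was shared by *YDK1* and *GH3.3*. That seen for *IAA2*, with IBA-Ala highest and IPA-Ala lowest, was shared by *EIR1*. Libraries overlapped between IAA-Ala and IBA-Ala for *GH3.3*, between IBA-Ala and IPA-Ala for *YDK1*, and between IAA-Ala and IPA-Ala for *IAA2*. The share of all genes with either order was not examined, so a shared order cannot be called unusual. The mean level of *YDK1* was 120 ± 21.5 CPM (SD, n = 2) after IAA-Ala, 37.7 ± 16.3 CPM after IBA-Ala and 16.9 ± 17.3 CPM after IPA-Ala. For *GH3.3* it was 218 ± 61.5, 140 ± 52.9 and 52.7 ± 43.0 CPM in the same order. The IPA-Ala replicates of these genes differed widely, with 4.60 and 29.1 CPM for *YDK1* and 22.3 and 83.1 CPM for *GH3.3* in replicates 1 and 2, and replicate 2 was also the higher one for *IAA2* and *IAA29*. The 4 *SAUR*-like genes had their lowest treated mean after IAA-Ala instead, as did *YUC3* and *UGT74E2*. Not all of these means came from separate libraries. Those of *YUC3* overlapped between all treatments. The IAA-Ala and IPA-Ala libraries overlapped for *UGT74E2* and *SAUR*-like BraA06g015440.3C, and the IAA-Ala and IBA-Ala libraries for *SAUR*-like BraA07g029140.3C.

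Between conjugates, 0 of the 10 genes were called by edgeR at 0.01. At an unadjusted p below 0.05, 2 were higher and 3 lower after IAA-Ala than after IPA-Ala, 1 was higher and 4 lower after IAA-Ala than after IBA-Ala, and 3 were higher and 0 lower after IBA-Ala than after IPA-Ala, where 22.7%, 27.2% and 7.97% of all genes passed in either direction. DESeq2 called 0, 4 and 0 of them at 0.01, beside 4.02%, 7.29% and 0.39% of all genes with an adjusted p. With a threshold of 0.05 instead, 1 gene was called between IAA-Ala and IPA-Ala (2.34% of all genes), *SAUR*-like BraA01g003520.3C with a log2 fold change of −3.29 (edgeR adjusted p = 0.0428). This gene held only 7 and 3 reads in IAA-Ala replicates 1 and 2, and DESeq2 gave it no adjusted p in this contrast. Between IAA-Ala and IBA-Ala, where 6.86% of all genes were called at that level, *YDK1* had a log2 fold change of 1.66 (adjusted p = 0.0288 in edgeR) and *UGT74E2* of −1.30 (adjusted p = 0.0403 in edgeR). Over the list, the median log2 fold change was −0.14 for IAA-Ala minus IPA-Ala, −0.22 for IAA-Ala minus IBA-Ala and 0.43 for IBA-Ala minus IPA-Ala, beside −0.02, −0.02 and 0.0029 over all genes tested. *IAA29* thus lay on the other side of 0 from the list median in both contrasts with IAA-Ala, although its value against IBA-Ala (0.24) turned its sign with a library left out. *IAA2* did so against IPA-Ala only (0.28). This was not particular to the repressors, since 3 genes of the list were higher and 7 lower in each of these contrasts. Among the 3 were *YDK1* (2.82 and 1.66) and *GH3.3* (2.05 and 0.63). Both repressors lay above the list median between IBA-Ala and IPA-Ala.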

How the data were processed

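The values are read counts per gene, which the authors made by clipping the first 9 bases of reads of about 50 bp, aligning them with STAR 2.7.1a to the Chiifu V3.0 genome and counting them by strand with HTSeq 1.99.2, without normalization. The deposited tables named as normalized counts were not used here. Rows that name no gene held between 25.3% and 28.1% of the reads per library and were left out. Reads aligned at several places belong to no gene, so values of genes with near-identical copies are uncertain.

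Groups and replicates were taken from the sample labels. With R 4.3.3, edgeR 4.0.16 and DESeq2 1.42.0, genes with low counts were removed by filterByExpr, which required a count of 10 and a total of 15, and TMM factors were computed. Fits of 4 libraries were tested by edgeR's quasi-likelihood test (legacy=FALSE) with Benjamini-Hochberg adjustment over all genes tested and a threshold of 0.01. Prior counts were 0.125 for fold changes and 2 for log2 CPM. Standard errors are the absolute log2 fold change divided by the square root of F. Python 3.11.15 with scipy 1.17.1 and matplotlib 3.10.9 was used for ratios and plots. The genes, lists and tests were chosen with earlier results of these data known. Named genes are *IAA2*, *IAA29*, the 10 other auxin-related genes with identifiers in the paper, and the 2 genes most correlated with each repressor. As alternatives, DESeq2, RLE factors, no filter, a minimum of 10 counts per library, a joint fit of the 8 libraries, the replicate block, both together, each replicate left out, and 0.5 added to the counts of the ratio were tried. The edgeR 3 form of the test (legacy=TRUE), and 0.05 as the threshold for the list of 10 genes, were added after seeing the data. The authors' own fold changes were not used.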

Additional observations from a re-analysis of the deposited data

How the results depend on the processing

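The log2 fold changes of *IAA2* and *IAA29* kept their direction under all alternatives, except for *IAA29* between IAA-Ala and IBA-Ala, which was −0.29 without IAA-Ala replicate 1 and −0.21 without IBA-Ala replicate 1, in a range from −0.29 to 0.85 with a library left out. DESeq2 turned 1 of their 6 contrasts between conjugates into a call, that of *IAA29* between IAA-Ala and IPA-Ala (log2 fold change 1.63). Without 1 library, the log2 fold change against the control ranged from 2.73 to 3.40 for *IAA2* after IBA-Ala. For *IAA29* it ranged from 4.30 to 5.20 with IAA-Ala, from 2.69 to 3.59 with IPA-Ala and from 3.98 to 5.03 with IBA-Ala. A fit with 1 library in a group assumes that this library varies like the others. The number of genes called between IAA-Ala and IPA-Ala, IAA-Ala and IBA-Ala, and IBA-Ala and IPA-Ala was 0 in the edgeR fits of 4 libraries without a replicate block. It was 846, 1736 and 91 with DESeq2 and 626, 1848 and 0 at an adjusted p below 0.05. Without 1 library it lay between 0 and 27 for IAA-Ala and IPA-Ala, the 27 being without IAA-Ala replicate 2. Of the 10 other auxin genes, 1 was called at 0.05 between IAA-Ala and IPA-Ala. For IAA-Ala against IBA-Ala, 2 were called at 0.05 and 4 with DESeq2. With the replicate number as a block, 2201 genes and 4 of these 10 were called between IAA-Ala and IBA-Ala, and no other call changed. The joint fit of the 8 libraries with the block called 0 genes and 0 of these 10 in that comparison. The labels do not say that a number marks a shared batch, and replicate differences of 2 groups correlated between −0.156 and 0.156 over 27948 genes, so the numbers were not taken to pair the libraries. The cause of these changes was not tested. Groups of 2 libraries limit the precision, as do the 12 and 10 reads of *IAA29* in the control.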
